A study of Mus musculus with 8 samples.

Results

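The collagen chain genes were taken as every gene of the count table whose symbol is Col, a number, the letter a and a number, which gave 43 of 26930 genes. The RNA came from fibroblasts of mouse embryos at day 8 of reprogramming to pluripotency with the OKSM factors, and the labels name the medium AGi. The 4 groups were K36M cells with 2.5 ng/ml TGF-beta1, K36M cells with 250 nM Repsox, WT cells with 2.5 ng/ml TGF-beta1 and WT cells with 250 nM Repsox, with 2 libraries each. K36M is a histone H3 mutant with methionine in place of the lysine that is methylated in WT. H3 is a second label of the WT cells, and Repsox blocks the type I receptor for TGF-beta. How K36M was expressed is not given in the sources used here. All 4 groups shared OKSM and AGi, and none was free of both TGF-beta1 and Repsox. A difference between media therefore sets an added ligand against a blocked receptor. Whether the paired libraries stem from separate cultures is not stated, so p-values reflect the spread of these libraries alone, which may be technical.

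Collagens are trimers of chains wound into a triple helix. Fibrillar collagens form the fibres of connective tissue. Basement membrane collagen IV forms a sheet under epithelia, collagen VI forms beaded filaments around cells, and FACIT collagens sit on the surface of fibrils. TGF-beta is known as an inducer of collagen genes in fibroblasts, and fibroblasts lose mesenchymal genes and gain epithelial ones in the course of reprogramming. By these classes the table held 11 fibrillar chains, 6 basement membrane chains (collagen IV), 6 beaded filament chains (collagen VI), 9 FACIT chains, 3 network chains (collagens VIII and X), 4 transmembrane chains, 2 multiplexin chains (collagens XV and XVIII), the anchoring fibril chain Col7a1 and, outside these, Col28a1.

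Library totals were 10928302 to 15594217 counts, and levels are CPM, the count divided by the TMM-scaled library size and set on a scale of 1e6. Tests are edgeR's quasi-likelihood test over all 8 libraries. A call means an adjusted p (Benjamini-Hochberg, over all tested genes) below 0.05, and the error after ± in a log2 value is its standard error. Of the 43 chain genes, 39 passed the filter on low counts. Col6a6, Col9a1, Col19a1 and Col28a1 did not, and none of them exceeded 0.472 CPM in any library. The libraries held fibroblast, epithelial and pluripotent genes together. The summed CPM of 16 fibroblast and mesenchyme markers was 456 to 495 in K36M TGF-beta, 166 to 197 in K36M Repsox, 7635 to 8210.4 in WT TGF-beta and 3775 to 3862 in WT Repsox libraries, and Tcf21 alone among them was at 0 in every library. That of 14 epithelial markers was 5514 to 5749 in K36M TGF-beta, 6599 to 6864 in K36M Repsox, 498 to 569 in WT TGF-beta and 2726 to 2887 in WT Repsox libraries, with none at 0. Pluripotency markers (12 genes) summed to 1139 to 1165 CPM in K36M TGF-beta, 2262 to 2273 in K36M Repsox, 84.3 to 88.6 in WT TGF-beta and 1544 to 1797 in WT Repsox libraries. In these bulk libraries fewer cells of a type and less RNA per cell cannot be told apart, and the part of the cell mixture in the collagen results was not tested. Counts of called markers below stand against high shares of all tested genes. With TGF-beta against Repsox 48.3% of all were called in K36M and 62.4% in WT. Between genotypes 70.3% were called under TGF-beta and 55.8% under Repsox.

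Collagen RNA was most abundant in WT cells with TGF-beta and least abundant in K36M cells with Repsox. It made up 0.317% and 0.321% of all counts in K36M TGF-beta, 0.196% and 0.191% in K36M Repsox, 1.04% and 1.17% in WT TGF-beta and 0.498% and 0.453% in WT Repsox libraries. Summed per kilobase of exon, so that chains of different length can be set side by side, the 43 genes gave 437 ± 3.23 CPM per kb in K36M TGF-beta, 276 ± 8.29 in K36M Repsox, 1543 ± 145 in WT TGF-beta and 623 ± 54.8 in WT Repsox cells (SD, n = 2 each). The 4 groups did not overlap. The sums were not tested. A two-sided exact permutation test of 2 libraries against 2 cannot go below p = 0.333.

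The make-up of that sum also differed between groups. Fibrillar chains were 20.9% of it in K36M TGF-beta, 5.42% in K36M Repsox, 64.8% in WT TGF-beta and 22.5% in WT Repsox cells. Basement membrane chains were 33.7% in K36M TGF-beta, 71.2% in K36M Repsox, 11.4% in WT TGF-beta and 25.3% in WT Repsox cells, although their summed level varied least of the classes. It was 147 CPM per kb in K36M TGF-beta, 197 in K36M Repsox, 176 in WT TGF-beta and 158 in WT Repsox cells. Multiplexins, almost all Col18a1 in K36M and mostly Col18a1 in WT, took 34.3% in K36M TGF-beta, 15.6% in K36M Repsox, 1.02% in WT TGF-beta and 8.29% in WT Repsox cells. Collagen VI took 5.72% in K36M TGF-beta, 3.89% in K36M Repsox, 15.5% in WT TGF-beta and 35.6% in WT Repsox cells. Without division by exon length its share was 9.42% in WT TGF-beta and 32.1% in WT Repsox cells. The leading chain per length was a different gene in each group, namely Col18a1 in K36M TGF-beta (149 CPM per kb), Col4a1 in K36M Repsox (109), Col1a1 in WT TGF-beta (365) and Col6a1 in WT Repsox cells (138). Without division by exon length Col1a2 stood above Col1a1 in WT TGF-beta cells (mean 3288 against 2395 CPM). The lead of Col1a1 there thus rests on the annotated lengths, 6563 exon bases against 12145 for Col1a2.

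**Figure D1:**
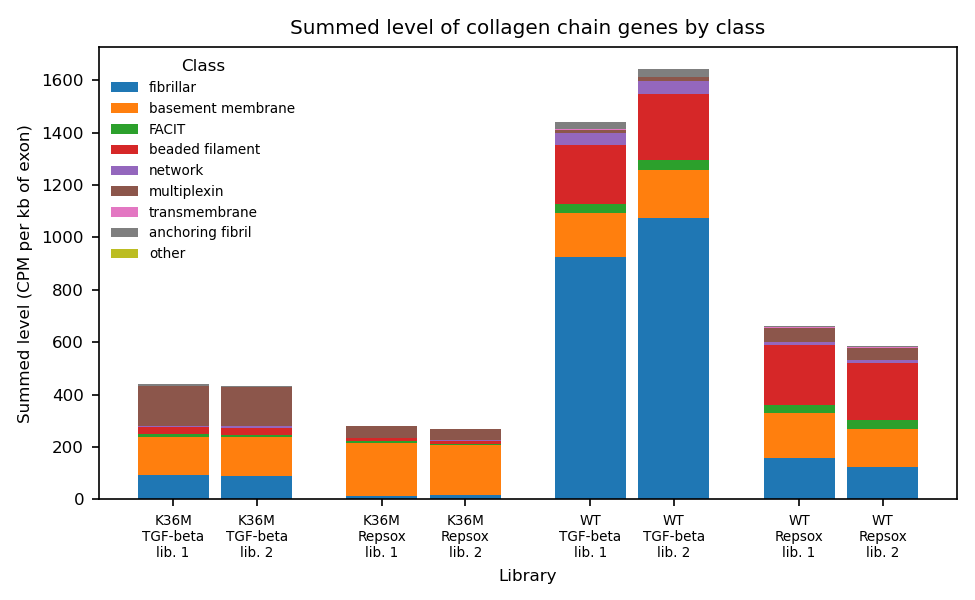
Summed level of the collagen chain genes in each of the 8 libraries (CPM per kb of exon, stacked by class). The 2 WT TGF-beta libraries stand highest and are mostly fibrillar (64.8%), and the 2 K36M Repsox libraries stand lowest and are mostly basement membrane (71.2%).

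TGF-beta against Repsox moved chains upward more often than downward in both genotypes. In K36M cells 28 of 39 chains were called, 23 higher and 5 lower under TGF-beta. Of all 15789 tested genes 48.3% were called, 24.7% higher and 23.6% lower. The median log2 fold change was 1.23 over the chains and 0.01 over all genes. In WT cells 33 chains were called, 21 higher and 12 lower, and of all genes 62.4%, 29% higher and 33.4% lower. There the median was 1.24 over the chains and -0.07 over all genes. Of the chains, 17 were called higher in both genotypes and 3 (Col6a3, Col13a1 and Col23a1) lower in both, and 4 (Col6a2, Col9a2, Col17a1 and Col18a1) were higher in K36M and lower in WT. The medium comparisons use different libraries, so these counts share no samples.

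K36M against WT moved chains downward more often than upward in both media. Under TGF-beta 26 of 39 chains were called, 20 lower and 6 higher in K36M, and of all tested genes 70.3%, 33.9% lower and 36.4% higher. The median log2 fold change was -0.98 over the chains and 0.05 over all genes. Under Repsox 28 chains were called, 21 lower and 7 higher, and of all genes 55.8%, 26.9% lower and 28.8% higher. Here the median was -1.51 over the chains and 0.04 over all genes. In both media 16 chains were lower, 4 were higher (Col9a2, Col9a3, Col13a1 and Col22a1), and Col17a1 was higher in K36M under TGF-beta and lower under Repsox. The test of the interaction, the TGF-beta change in K36M minus that in WT, called 26 chains, 16 with a positive and 10 with a negative value. Of all genes it called 51%, 28.5% positive and 22.6% negative.

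**Figure D2:**
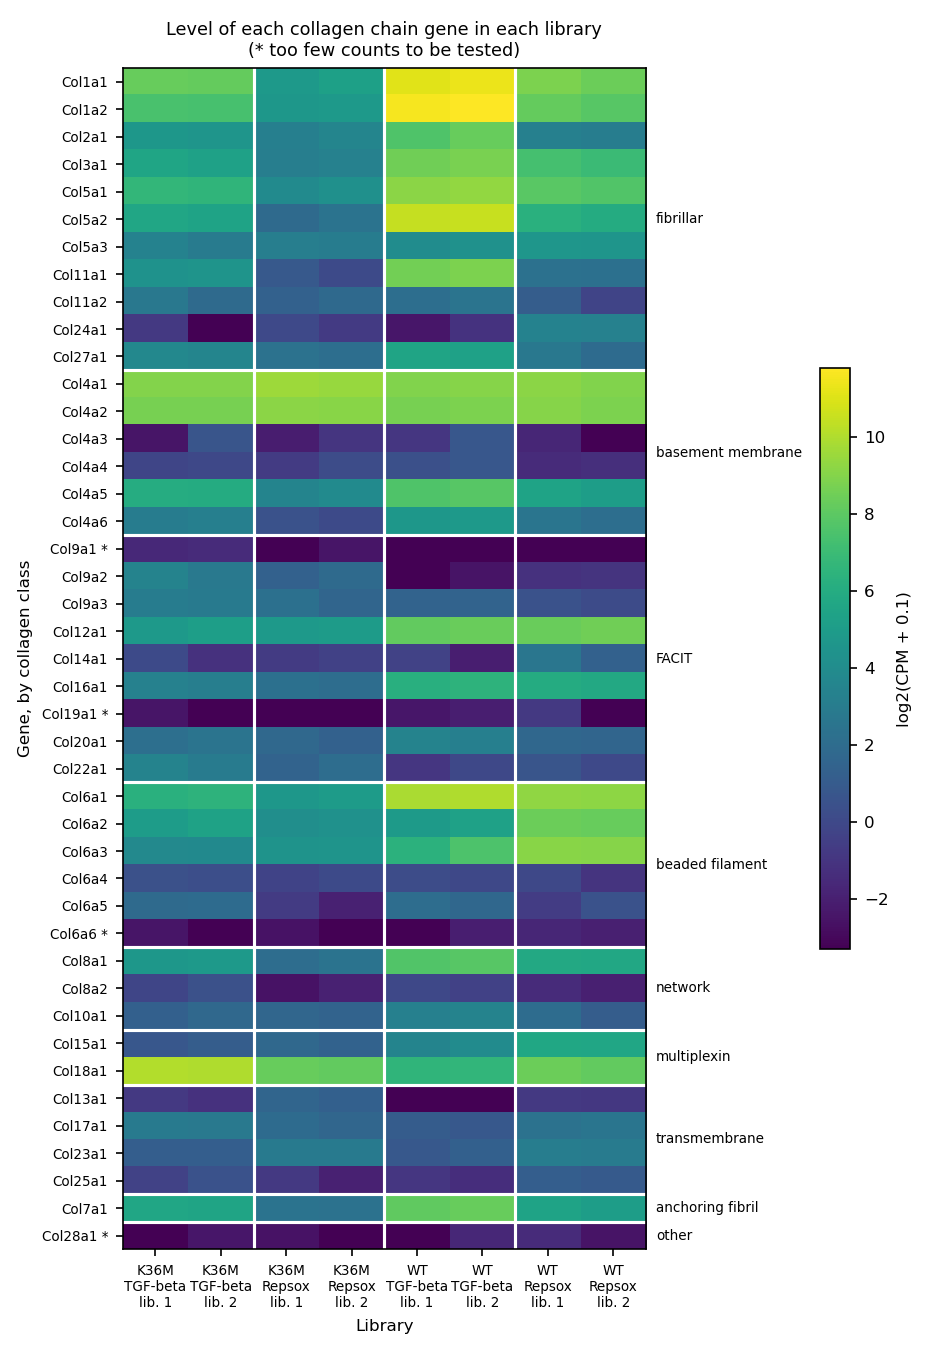
Level of each of the 43 collagen chain genes (rows, by class) in each library (columns), as log2(CPM + 0.1), with an asterisk on the 4 genes that were not tested. Most fibrillar chains are brightest in WT TGF-beta and dimmest in K36M Repsox libraries, Col4a1 and Col4a2 are bright in all 8, and Col18a1 is brightest in K36M TGF-beta (1064 and 1034 CPM).

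Most fibrillar chains were lower in K36M in both media and higher with TGF-beta in both genotypes. In K36M against WT, 9 of 11 were lower and none higher under TGF-beta, and 8 were lower and 1 (Col11a2) higher under Repsox, with median log2 fold changes of -2.98 and -3.30. Under TGF-beta against Repsox, 8 were higher and none lower in K36M, and 9 were higher and 2 lower in WT, with medians of 2.24 and 2.60. The summed fibrillar level was 91.2 ± 3.26 CPM per kb in K36M TGF-beta, 14.9 ± 1.88 in K36M Repsox, 1001 ± 104 in WT TGF-beta and 141 ± 23.5 in WT Repsox cells (SD, n = 2 each). The sum was thus 6.12-fold higher with TGF-beta in K36M and 7.11-fold higher in WT. Beside it, 11 of 15 tested mesenchyme markers were lower and 1 higher in K36M under TGF-beta, and 14 were lower and none higher under Repsox. With TGF-beta, 10 of the 15 were higher and 2 lower in K36M, and 6 higher and 8 lower in WT. Muscle and pericyte markers (10 genes, 7 tested) rose with TGF-beta in 5 cases in K36M, with none lower, and in 6 in WT, with 1 lower. They summed to 623 to 641 CPM in K36M TGF-beta, 109.6 to 116 in K36M Repsox, 1471 to 1579.6 in WT TGF-beta and 176 to 187 in WT Repsox libraries, with Myod1 at 0 in every group but WT Repsox and Kcnj8 and Abcc9 at 0 in WT TGF-beta. Their part in the fibrillar result was not tested.

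Collagen I, the main fibril of skin, bone and tendon, is built of a pair of chains from Col1a1 and one from Col1a2. Col1a1 (chromosome 11, 94797538 to 94814356, plus strand of mm9) had 306 and 299 CPM in K36M TGF-beta and 29.1 and 37.7 in K36M Repsox libraries. WT values were 2200.3 and 2590.1 CPM with TGF-beta and 452 and 339.8 with Repsox. Its 4 groups did not overlap. It was lower in K36M by 7.92-fold under TGF-beta (log2 -2.98 ± 0.11, adjusted p = 1.9e-16) and by 11.9-fold under Repsox (log2 -3.57 ± 0.12, adjusted p = 1.92e-16). Col1a2 (chromosome 6, 4454814 to 4491543, plus strand) had 172 and 171 CPM in K36M TGF-beta and 25.7 and 28.6 in K36M Repsox libraries. In WT libraries it stood at 3031 and 3545 CPM with TGF-beta and 299 and 234 with Repsox. It was 6.33-fold higher with TGF-beta in K36M (log2 2.66 ± 0.10, adjusted p = 3.16e-15) and 12.3-fold higher in WT (log2 3.62 ± 0.09, adjusted p = 9.17e-19). Col1a1 was 9.10-fold higher with TGF-beta in K36M (log2 3.19 ± 0.12, adjusted p = 2.38e-15) and 6.05-fold higher in WT (log2 2.60 ± 0.11, adjusted p = 2.23e-15).

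The pair therefore did not keep 1 ratio. Per length, Col1a1 over Col1a2 was 3.27 ± 0.05 in K36M TGF-beta, 2.27 ± 0.25 in K36M Repsox, 1.35 ± 0.0062 in WT TGF-beta and 2.74 ± 0.08 in WT Repsox cells (SD, n = 2 each). The interaction was negative for Col1a2 (log2 -0.96 ± 0.13, adjusted p = 3.15e-06) and positive for Col1a1 (log2 0.59 ± 0.16, adjusted p = 0.00305), and that of Col1a1 lost its call with DESeq2 (adjusted p = 0.124). The lengths are of all annotated exons. A ratio between genes and its SD therefore carry the annotation, while the fold change of the ratio between groups does not.

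Collagens III, V and XI enter the same fibrils, and collagen V starts their assembly. Col3a1 had 47.6 and 39.7 CPM in K36M TGF-beta and 8.63 and 9.97 in K36M Repsox libraries. Its levels in WT were 369.5 and 431 CPM with TGF-beta and 161 and 125 with Repsox. Its 4 groups did not overlap either. Col5a1 (chromosome 2, 27741945 to 27895034, plus strand) had 103 and 95.9 CPM in K36M TGF-beta and 14.9 and 19.2 in K36M Repsox libraries. WT cells gave 583 and 651 CPM with TGF-beta and 246 and 206 with Repsox. Col5a2 (chromosome 1, 45431166 to 45560127, minus strand) had 48.8 and 43.3 CPM in K36M TGF-beta and 3.69 and 5.31 in K36M Repsox libraries. The corresponding WT levels were 1436 and 1486 CPM with TGF-beta and 76.5 and 64.1 with Repsox. Col5a2 was among the chains most reduced in K36M, by 31.7-fold under TGF-beta (log2 -4.99 ± 0.10, adjusted p = 1.32e-20) and 15.9-fold under Repsox (log2 -3.99 ± 0.13, adjusted p = 1.02e-16), and was 10.4-fold higher with TGF-beta in K36M (log2 3.38 ± 0.14, adjusted p = 5.56e-15) and 20.8-fold higher in WT (log2 4.38 ± 0.10, adjusted p = 4.58e-20). Col5a1 was lower in K36M by 6.22-fold under TGF-beta and 13.3-fold under Repsox, and its rise with TGF-beta was larger in K36M, 5.85-fold against 2.73-fold in WT (interaction log2 1.10 ± 0.15, adjusted p = 1.42e-06). The opposite held for Col5a2 (interaction log2 -0.999 ± 0.18, adjusted p = 8.27e-05), and Col5a1 over Col5a2 per length was 2.44 ± 0.09 in K36M TGF-beta, 4.34 ± 0.35 in K36M Repsox, 0.477 ± 0.03 in WT TGF-beta and 3.63 ± 0.0073 in WT Repsox cells (SD, n = 2 each).

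Col11a1, which joins collagen II in cartilage fibrils and collagen V elsewhere, had 20.4 and 22.8 CPM in K36M TGF-beta and 1.78 and 0.965 in K36M Repsox libraries. The WT libraries had 389 and 447 CPM with TGF-beta and 4.79 and 4.68 with Repsox. Its 88.1-fold rise with TGF-beta in WT (log2 6.46 ± 0.13, adjusted p = 1.64e-20) was the largest of the fibrillar chains, against 15.2-fold in K36M (log2 3.93 ± 0.19, adjusted p = 1.48e-13; interaction log2 -2.53 ± 0.32, adjusted p = 8.3e-07). Col2a1, the cartilage fibril chain, had 25.2 and 23.1 CPM in K36M TGF-beta and 9.15 and 11.6 in K36M Repsox libraries. WT values were 199 and 311 CPM with TGF-beta and 9.64 and 8.23 with Repsox. It rose 2.35-fold with TGF-beta in K36M and 28.5-fold in WT (interaction log2 -3.60 ± 0.27, adjusted p = 1.82e-10), and the Repsox libraries of K36M and WT overlapped (log2 0.20 ± 0.22, adjusted p = 0.463). Chondrocyte markers (10 genes, of which 9 were in the table and 6 tested) summed to 25.2 to 25.9 CPM in K36M TGF-beta, 18.3 to 22.6 in K36M Repsox, 11.1 to 15.1 in WT TGF-beta and 14.4 to 17.7 in WT Repsox libraries, with Ihh at 0 in K36M TGF-beta. In WT, 4 of the 6 were lower and 1 higher with TGF-beta, and Acan, the cartilage proteoglycan, had 0.603 and 0.0718 CPM in WT TGF-beta and 3.91 and 4.15 CPM in WT Repsox libraries.

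The remaining fibrillar chains were low. Col27a1 followed the rise with TGF-beta (2.69-fold in K36M, 8.23-fold in WT; interaction log2 -1.61 ± 0.29, adjusted p = 6.1e-05). Col24a1 went the other way in WT, with 0.469 and 0 CPM in K36M TGF-beta and 0.922 and 0.483 in K36M Repsox libraries. In WT libraries it stood at 0.0861 and 0.359 CPM with TGF-beta and 10.5 and 9.90 with Repsox. That is a fall of 42.0-fold in WT (log2 -5.39 ± 0.52, adjusted p = 6.19e-09), with log2 values of -4.79 and -6.74 without the first and the second WT TGF-beta library. The interaction of Col24a1 (log2 3.88 ± 1.21) turned to -0.88 without the first K36M TGF-beta library. Col5a3 had between 7.78 and 24.5 CPM throughout, and the lower level with TGF-beta in WT (log2 -0.42 ± 0.15, adjusted p = 0.0202) lost its call without the first library of either WT group or with DESeq2. Col11a2 had between 0.755 and 6.49 CPM, and its higher level in K36M under Repsox (log2 1.04 ± 0.42, adjusted p = 0.0383) lost its call with DESeq2 (adjusted p = 0.0907) or without the second library of either Repsox group, and was 1.97 on the log2 scale without the first WT Repsox library.

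The promoters of Col1a2 and Col11a1, a pair of fibrillar chains that rose with TGF-beta in both genotypes, are shown with the letters that a search for 5 motifs found. Each window runs from 250 bases before to 50 after the annotated start in RefSeq on GRCm38.p6, read 5′ to 3′ on the strand of the gene. Capitals mark CCAAT (the NF-Y box), GGGCGG (the Sp1 box), CAGAC (the core of a Smad-binding element), TGANTCA (the AP-1 element) and TATAAA (the TATA box) on either strand, and matches of different motifs may share bases. 35 of the 43 chain genes had an entry, 38 windows in all, and Col12a1, Col14a1, Col1a1, Col22a1, Col2a1, Col4a3, Col5a2 and Col9a3 had none.
Col1a2 promoter, chr6:4505368-4505667, plus strand: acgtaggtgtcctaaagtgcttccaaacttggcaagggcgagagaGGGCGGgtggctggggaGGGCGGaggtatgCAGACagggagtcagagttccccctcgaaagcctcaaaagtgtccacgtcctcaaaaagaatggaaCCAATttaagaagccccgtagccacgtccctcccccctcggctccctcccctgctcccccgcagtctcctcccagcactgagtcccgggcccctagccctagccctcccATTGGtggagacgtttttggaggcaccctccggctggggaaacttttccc
Col11a1 promoter, chr3:114030290-114030589, plus strand: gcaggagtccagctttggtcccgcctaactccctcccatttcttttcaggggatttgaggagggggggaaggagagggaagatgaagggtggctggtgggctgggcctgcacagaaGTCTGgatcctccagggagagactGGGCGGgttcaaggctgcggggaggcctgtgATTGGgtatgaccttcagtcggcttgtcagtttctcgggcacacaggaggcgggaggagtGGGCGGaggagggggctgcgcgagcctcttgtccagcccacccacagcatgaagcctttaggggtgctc
GGGCGG was in 23 of the 38 windows (60.5%) and in 35.7% of all 32851 promoters of the table, CAGAC in 20 (52.6%) against 49.6% of all, CCAAT in 13 (34.2%) against 37.4%, TATAAA in 5 (13.2%) against 13.6% and TGANTCA in 1 (2.63%) against 7.81%. Both windows above hold 2 GGGCGG and 1 CAGAC, and Col1a2 holds 2 CCAAT and Col11a1 1. Other fibrillar chains that rose in both genotypes had different windows. Those of Col5a1 and Col27a1 also hold 2 GGGCGG and 1 CAGAC but no CCAAT. That of Col3a1 holds 2 CAGAC and 1 TATAAA, and neither GGGCGG nor CCAAT. A match is a description of the letters, not a bound site.

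Basement membrane collagen IV split into chains that stayed near level and chains that moved with the fibrillar ones. Col4a1 and Col4a2, which form the collagen IV of nearly all basement membranes, were the 2 highest chains of the class in every group. Col4a1 (chromosome 8, 11198423 to 11312826, minus strand) had 505 and 515 CPM in K36M TGF-beta and 771 and 711 in K36M Repsox libraries. Its levels in WT were 486 and 536 CPM with TGF-beta and 576 and 495 with Repsox. Col4a2 (chromosome 8, 11312805 to 11449287, plus strand) had 409 and 409 CPM in K36M TGF-beta and 585 and 549 in K36M Repsox libraries. WT cells gave 420.4 and 443 CPM with TGF-beta and 523 and 442 with Repsox. Under Repsox both were higher in K36M, Col4a1 by 1.38-fold (log2 0.47 ± 0.07, adjusted p = 1.1e-05) and Col4a2 by 1.17-fold (log2 0.23 ± 0.07, adjusted p = 0.00993). Under TGF-beta neither was called between genotypes, and the libraries of Col4a1 overlapped (log2 -0.0033 ± 0.07, adjusted p = 0.971). With TGF-beta both were lower in K36M (Col4a1 log2 -0.54 ± 0.07, adjusted p = 2.11e-06; Col4a2 log2 -0.47 ± 0.07, adjusted p = 1.32e-05) and neither was called in WT (Col4a1 log2 -0.07 ± 0.07, adjusted p = 0.433; Col4a2 log2 -0.16 ± 0.07, adjusted p = 0.0624).

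The Repsox call of Col4a1 and the K36M medium calls of both genes held under all 14 alternatives. The WT medium and TGF-beta genotype differences depend on how libraries are scaled. On library totals alone the median of all genes shifts to -0.275 in the WT medium comparison and to 0.248 in the genotype comparison under TGF-beta, and there Col4a1 is called lower with TGF-beta in WT (-0.28, adjusted p = 0.00148) and higher in K36M under TGF-beta (0.20, adjusted p = 0.0144). Col4a2 is likewise called lower with TGF-beta in WT there (-0.37, adjusted p = 9.62e-05). The WT medium changes also depend on single libraries. Without the second WT Repsox library they were -0.17 for Col4a1 and -0.28 for Col4a2. That of Col4a1 was 0.042 without the first WT Repsox library and 0.0074 without the first WT TGF-beta library. Without the filter on low counts Col4a2 was called lower with TGF-beta in WT (-0.18, adjusted p = 0.0237). The Repsox call of Col4a2 was lost in a fit of those 2 groups alone (adjusted p = 0.0756), without the second WT Repsox library or without the first K36M Repsox library. The ratio of Col4a1 to Col4a2 per length is free of scaling, and was 1.21 ± 0.02 in K36M TGF-beta, 1.27 ± 0.02 in K36M Repsox, 1.15 ± 0.04 in WT TGF-beta and 1.08 ± 0.01 in WT Repsox cells (SD, n = 2 each), a narrower range than that of the Col1a1 to Col1a2 ratio. Primitive endoderm markers (10 genes), a cell type rich in collagen IV, summed to 121 to 124 CPM in K36M TGF-beta, 183 to 196 in K36M Repsox, 60.9 to 62.6 in WT TGF-beta and 319 to 351 in WT Repsox libraries, with Sox17 and Foxa2 at 0 in WT TGF-beta, Ttr at 0 in both K36M groups and Afp at 0 in WT Repsox. Of 8 tested, 2 were higher and 5 lower with TGF-beta in K36M, and none higher and 5 lower in WT. In K36M against WT, 5 of these were higher and 1 lower under TGF-beta, and 3 higher and 4 lower under Repsox. Pdgfra stands both in this list and in that of fibroblast and mesenchyme markers, and its part in the sum was not tested. Endothelial markers (8 genes) summed to 149 to 154 CPM in K36M TGF-beta, 112 to 115 in K36M Repsox, 124 in both WT TGF-beta and 60.4 to 64.2 in WT Repsox libraries, with Emcn at 0 in both TGF-beta groups and Tie1 at 0 in WT TGF-beta. Of 7 tested, 1 was higher (Tek) and 5 lower with TGF-beta in WT, and 3 were higher and 2 lower in K36M. Among all tested genes 29% were higher and 33.4% lower in WT, and 24.7% higher and 23.6% lower in K36M. Tek, an endothelial receptor kinase, made up most of the WT TGF-beta sum (118 CPM in each library).

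Col4a1 and Col4a2 lie head to head, with annotated starts 21 bases apart on mm9 and a short overlap of the 2 genes there. The 2 windows, read on opposite strands, share 78 bases and are shown because the ratio of the 2 genes varied little.
Col4a1 promoter, chr8:11312777-11313076, minus strand: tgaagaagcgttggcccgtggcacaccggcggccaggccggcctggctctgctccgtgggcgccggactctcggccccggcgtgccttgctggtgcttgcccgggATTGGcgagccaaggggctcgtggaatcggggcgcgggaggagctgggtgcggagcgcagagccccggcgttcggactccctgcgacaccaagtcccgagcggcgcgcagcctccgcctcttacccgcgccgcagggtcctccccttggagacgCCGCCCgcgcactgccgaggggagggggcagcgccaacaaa
Col4a2 promoter, chr8:11312555-11312854, plus strand: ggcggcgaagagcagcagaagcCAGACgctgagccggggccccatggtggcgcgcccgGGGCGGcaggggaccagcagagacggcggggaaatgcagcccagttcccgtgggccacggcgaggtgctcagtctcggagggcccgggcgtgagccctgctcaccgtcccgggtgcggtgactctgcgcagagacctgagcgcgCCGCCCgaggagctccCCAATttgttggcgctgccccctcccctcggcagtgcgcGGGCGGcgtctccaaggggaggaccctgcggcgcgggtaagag
The capitals mark the same 5 motifs, with 1 CCAAT and 1 GGGCGG in the Col4a1 window and 1 CCAAT, 3 GGGCGG and 1 CAGAC in the Col4a2 window. The GGGCGG of the Col4a1 window lies in the shared bases and is the same site as 1 of those in the Col4a2 window.

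Col4a5 and Col4a6, whose chains occur together in collagen IV of smooth muscle, lie head to head on chromosome X with starts 1309 bases apart. Col4a5 had 64.6 and 63.6 CPM in K36M TGF-beta and 11.1 and 14.6 in K36M Repsox libraries. The corresponding WT levels were 199.8 and 229 CPM with TGF-beta and 42.7 and 34.7 with Repsox. No groups overlapped. It was 5.02-fold higher with TGF-beta in K36M (log2 2.33 ± 0.13, adjusted p = 1.08e-12) and 5.53-fold in WT (log2 2.47 ± 0.11, adjusted p = 7.07e-15), and lower in K36M under TGF-beta (log2 -1.74 ± 0.11, adjusted p = 1.4e-12) and under Repsox (log2 -1.60 ± 0.13, adjusted p = 6.12e-10). Col4a6 had 8.05 and 9.17 CPM in K36M TGF-beta and 1.32 and 0.965 in K36M Repsox libraries. The WT libraries had 26.0 and 27.8 CPM with TGF-beta and 5.86 and 4.38 with Repsox. It was called in the same direction as Col4a5 in the 4 comparisons of media and genotypes. Col4a5 over Col4a6 per length was 8.91 ± 0.92 in K36M TGF-beta, 14.1 ± 5.66 in K36M Repsox, 9.47 ± 0.45 in WT TGF-beta and 9.05 ± 0.54 in WT Repsox cells (SD, n = 2 each), and neither interaction was called (Col4a5 log2 -0.14 ± 0.17, adjusted p = 0.517; Col4a6 log2 0.50 ± 0.35, adjusted p = 0.244). The third head-to-head pair, Col4a3 and Col4a4, did not exceed 1.65 CPM in any library. Col4a3 rested on 28 counts in WT TGF-beta and 3 in WT Repsox libraries, a ratio of 10.3 (exact 95% interval 3.17 to 52.7, counting error only), and its call in WT was lost with DESeq2 or without the second library of either WT group. Col4a4 was called higher with TGF-beta in WT (log2 2.30 ± 0.64, adjusted p = 0.00351), and without the second WT TGF-beta library that call was lost (adjusted p = 0.0521).

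Collagen VI is assembled from an alpha-1, an alpha-2 and an alpha-3 chain, and its 3 main genes were lower in K36M under Repsox by 17.5- to 24.3-fold. With TGF-beta they parted in WT, where Col6a1 rose and Col6a2 and Col6a3 fell. Col6a1 (chromosome 10, 76171537 to 76188913, minus strand) had 77.1 and 87.5 CPM in K36M TGF-beta and 25.7 and 31.4 in K36M Repsox libraries. WT values were 939.7 and 1019 CPM with TGF-beta and 613 and 597 with Repsox. Col6a2 (chromosome 10, 76058507 to 76086375, minus strand) had 32.7 and 42.6 CPM in K36M TGF-beta and 17.3 and 19.8 in K36M Repsox libraries. In WT libraries it stood at 30.5 and 40.5 CPM with TGF-beta and 338 and 308 with Repsox. In WT, Col6a2 was thus far below its Repsox level with TGF-beta, while in K36M it was above it. Col6a3 (chromosome 1, 92663435 to 92740529, minus strand) had 13.7 and 14.3 CPM in K36M TGF-beta and 21.9 and 22.2 in K36M Repsox libraries. Its levels in WT were 84.7 and 192 CPM with TGF-beta and 552 and 521 with Repsox. Its 2 WT TGF-beta libraries stood further apart than those of the other groups.

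Under TGF-beta against Repsox, Col6a1 rose 2.89-fold in K36M (log2 1.53 ± 0.09, adjusted p = 6.05e-12) and 1.62-fold in WT (log2 0.70 ± 0.08, adjusted p = 4.82e-08). Col6a2 rose 2.03-fold in K36M (log2 1.02 ± 0.14, adjusted p = 1.95e-06) and fell 9.05-fold in WT (log2 -3.18 ± 0.12, adjusted p = 6.66e-16), an interaction of log2 4.20 ± 0.18, adjusted p = 2.75e-14. Col6a3 was 1.58-fold lower in K36M (log2 -0.66 ± 0.27, adjusted p = 0.0458) and 3.85-fold lower in WT (log2 -1.95 ± 0.19, adjusted p = 8.21e-09). The K36M call of Col6a3 was lost when any 1 of the 4 K36M libraries was left out, with RLE factors, with library totals and with DESeq2. Without the second WT TGF-beta library its WT change was -2.67 and its interaction 2.01, against 1.29 ± 0.33 (adjusted p = 0.00227) with all libraries, and that interaction lost its call with DESeq2 (adjusted p = 0.055).

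In K36M against WT under TGF-beta, Col6a1 was 11.9-fold lower (log2 -3.57 ± 0.09, adjusted p = 2.15e-19) and Col6a3 9.95-fold lower (log2 -3.31 ± 0.24, adjusted p = 2.83e-11), or -2.60 without the second WT TGF-beta library. Col6a2 overlapped between the genotypes under TGF-beta (log2 0.07 ± 0.13, adjusted p = 0.627). Per length Col6a1 over Col6a2 was 4.19 ± 0.41 in K36M TGF-beta, 2.91 ± 0.14 in K36M Repsox, 53.1 ± 7.59 in WT TGF-beta and 3.56 ± 0.17 in WT Repsox cells (SD, n = 2 each), so that the WT TGF-beta group alone stood far from the other 3. Of the minor chains, Col6a5 was higher with TGF-beta in K36M (log2 3.32 ± 0.52, adjusted p = 1.44e-05) and in WT (log2 1.99 ± 0.44, adjusted p = 0.00048) at up to 4.05 CPM. These values were 4.43 without the first K36M Repsox library and 2.71 without the second WT Repsox library. Col6a4 was called in no comparison at up to 1.25 CPM, and Col6a6 was not tested.

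Col6a1 and Col6a2 lie on the same strand of chromosome 10, 85161 bases apart, with Col18a1 326009 bases beyond Col6a1. Their promoters are shown because the 2 genes parted in WT with TGF-beta.
Col6a1 promoter, chr10:76725995-76726294, minus strand: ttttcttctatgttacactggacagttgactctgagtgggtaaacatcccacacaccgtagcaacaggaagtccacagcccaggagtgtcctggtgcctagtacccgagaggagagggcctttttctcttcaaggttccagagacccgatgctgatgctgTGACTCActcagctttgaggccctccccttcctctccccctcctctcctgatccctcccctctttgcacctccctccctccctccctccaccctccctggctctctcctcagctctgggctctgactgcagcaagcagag
Col6a2 promoter, chr10:76623355-76623654, minus strand: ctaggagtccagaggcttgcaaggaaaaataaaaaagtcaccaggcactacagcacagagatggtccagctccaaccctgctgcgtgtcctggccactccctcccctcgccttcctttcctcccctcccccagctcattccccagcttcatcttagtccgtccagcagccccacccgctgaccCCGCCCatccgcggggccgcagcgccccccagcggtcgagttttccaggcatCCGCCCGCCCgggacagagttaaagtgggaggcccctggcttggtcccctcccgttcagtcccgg
The Col6a1 window holds the sole TGANTCA among the 38 chain gene windows and no GGGCGG, and the Col6a2 window holds 3 GGGCGG, of which a pair share bases, and no TGANTCA. RefSeq gives Col6a2 another start upstream, which is not shown. The window of that start holds 1 GGGCGG and 1 CAGAC, while neither window shown holds a CAGAC.

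**Figure D3:**
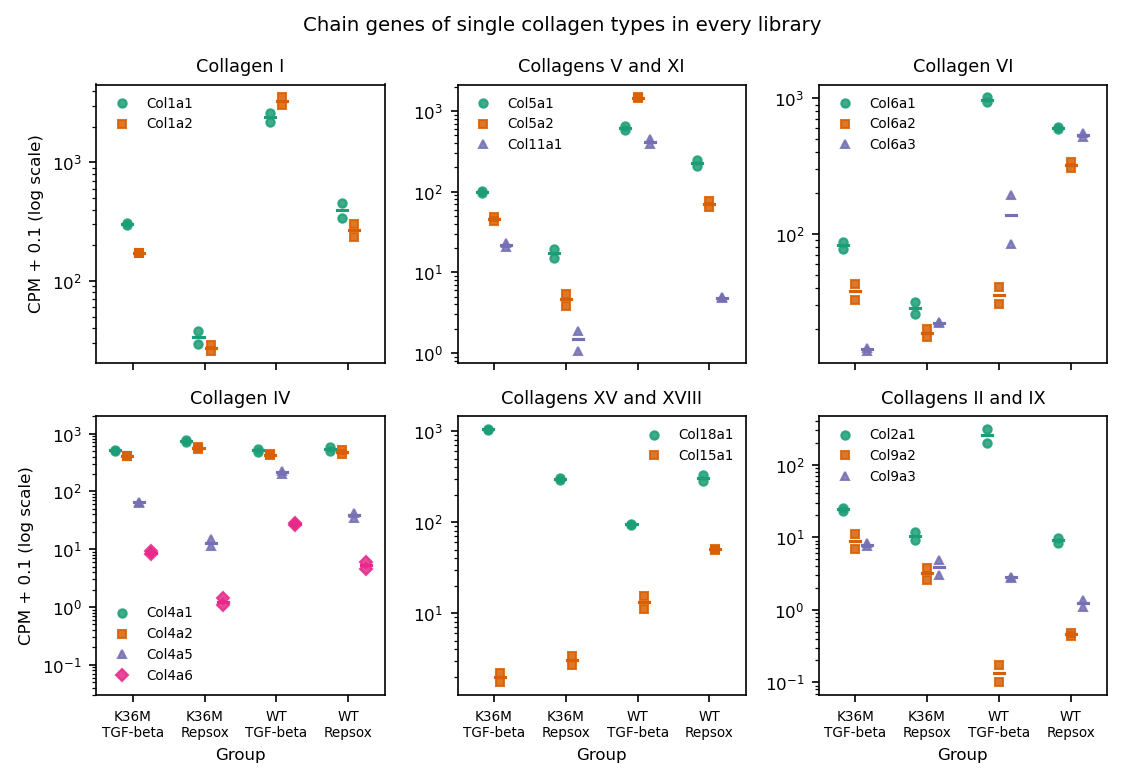
Level of selected chain genes in each library (CPM + 0.1, log scale, with 1 panel for each collagen type or pair of types; bars are group means of 2 libraries). Col1a1 and Col1a2 rise and fall in the same groups, Col6a2 drops away from Col6a1 in WT TGF-beta libraries (30.5 and 40.5 CPM), and Col18a1 is highest in K36M TGF-beta and lowest in WT TGF-beta libraries.

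Among the FACIT chains Col12a1 and Col16a1 were lower in K36M in both media, and Col9a2, Col9a3 and Col22a1, of lower level, were higher. Col12a1, which coats fibrils in tendon and skin, had 29.4 and 34.9 CPM in K36M TGF-beta and 28.0 and 30.8 in K36M Repsox libraries. WT cells gave 288 and 319 CPM with TGF-beta and 326 and 366 with Repsox. It was lower in K36M by 9.46-fold under TGF-beta (log2 -3.24 ± 0.10, adjusted p = 9.2e-18) and 11.8-fold under Repsox (log2 -3.56 ± 0.10, adjusted p = 8.52e-18), and the medium was called in neither genotype (K36M log2 0.13 ± 0.11, adjusted p = 0.352; WT log2 -0.19 ± 0.08, adjusted p = 0.0579). With the replicate number as a block, the WT medium change of Col12a1 had adjusted p = 0.0238 at the same -0.19, and on library totals it was -0.40 (adjusted p = 0.000643). Col16a1 had 9.69 and 8.74 CPM in K36M TGF-beta and 4.67 and 4.18 in K36M Repsox libraries. The corresponding WT levels were 74.8 and 88.3 CPM with TGF-beta and 63.3 and 54.7 with Repsox. It was lower in K36M by 8.84-fold under TGF-beta (log2 -3.14 ± 0.13, adjusted p = 1.97e-15) and 13.2-fold under Repsox (log2 -3.73 ± 0.15, adjusted p = 2.22e-15). Its rise with TGF-beta was 2.07-fold in K36M and 1.38-fold in WT.

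Of the collagen IX chains, known from cartilage and the vitreous, Col9a2 and Col9a3 were higher in K36M in both media. Col9a2 had 10.9 and 6.73 CPM in K36M TGF-beta and 2.50 and 3.70 in K36M Repsox libraries. The WT libraries had 0 and 0.0718 CPM with TGF-beta and 0.337 and 0.378 with Repsox. The K36M libraries were above all WT libraries. Its WT TGF-beta libraries held 1 count in all, which gives a ratio of 229 to 1 for K36M over WT under TGF-beta (exact 95% interval 40.6 to 9073, counting error only). Under Repsox its K36M level exceeded that of WT 8.42-fold (log2 3.07 ± 0.50, adjusted p = 1.72e-05). Within K36M it was 2.88-fold higher with TGF-beta (log2 1.53 ± 0.32, adjusted p = 0.000397), and in WT the lower level with TGF-beta (ratio 9.10, interval 1.29 to 395) lost its call with DESeq2, without either WT Repsox library and without the first WT TGF-beta library. Col9a3 had 8.13 and 7.51 CPM in K36M TGF-beta and 4.67 and 2.90 in K36M Repsox libraries. WT values were 2.67 and 2.73 CPM with TGF-beta and 1.28 and 0.982 with Repsox. It was 2.89-fold higher in K36M under TGF-beta (log2 1.53 ± 0.29, adjusted p = 6.86e-05) and 3.35-fold under Repsox (log2 1.74 ± 0.35, adjusted p = 0.000203). Its annotated exons share 6.07% of their bases with Tcfl5 on the other strand, and the strand setting of the counting was not given in the sources used here. Col9a1 was not tested, at 6 counts in K36M TGF-beta, 1 in K36M Repsox and 0 in both WT groups.

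Col22a1, found at tissue junctions such as that of muscle and tendon, had 10.5 and 7.60 CPM in K36M TGF-beta and 2.77 and 4.10 in K36M Repsox libraries. In WT libraries it stood at 0.430 and 0.862 CPM with TGF-beta and 1.48 and 0.907 with Repsox. It was 13.6-fold higher in K36M under TGF-beta (log2 3.76 ± 0.39, adjusted p = 1.65e-08), with a log2 fold change of 4.37 without the second WT TGF-beta library, and 2.80-fold higher under Repsox (log2 1.49 ± 0.38, adjusted p = 0.00217). Of the 6 tested chondrocyte markers, K36M had 4 higher and 2 lower under TGF-beta and, under Repsox, 3 higher and 2 lower. Col14a1 was highest in WT Repsox (6.00 and 2.49 CPM) and at most 0.938 CPM in the other groups. Col20a1 had 2.49 to 10.9 CPM, was highest in WT TGF-beta and was lower in K36M there (log2 -1.02 ± 0.24, adjusted p = 0.000632).

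The network chain Col8a1, a component of vascular and corneal matrix, followed the fibrillar chains. It had 25.01 and 27.6 CPM in K36M TGF-beta and 4.08 and 5.31 in K36M Repsox libraries. Its levels in WT were 204 and 230.1 CPM with TGF-beta and 55.4 and 52.6 with Repsox. It was lower in K36M by 8.26-fold under TGF-beta (log2 -3.05 ± 0.10, adjusted p = 3.29e-17) and 11.6-fold under Repsox (log2 -3.54 ± 0.13, adjusted p = 9.43e-16). It was 5.65-fold higher with TGF-beta in K36M and 4.02-fold in WT. Col10a1, the hypertrophic cartilage chain, had 2.42 and 3.41 CPM in K36M TGF-beta and 3.03 and 2.73 in K36M Repsox libraries. WT cells gave 9.55 and 10.9 CPM with TGF-beta and 3.98 and 2.12 with Repsox. It was higher with TGF-beta in WT alone by call (log2 1.73 ± 0.28, adjusted p = 9.99e-06; K36M log2 0.0036 ± 0.33, adjusted p = 0.997), and the difference between the genotypes in this was itself called (interaction log2 -1.73 ± 0.43, adjusted p = 0.0018). Col8a2 stayed at or below 1.22 CPM, with 24 counts in K36M TGF-beta and 3 in K36M Repsox libraries, a ratio of 9.12 (exact 95% interval 2.77 to 47.3).

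Col7a1, the single gene of the anchoring fibrils that tie epithelium to dermis, had 49.7 and 46.0 CPM in K36M TGF-beta and 5.33 and 4.99 in K36M Repsox libraries. The corresponding WT levels were 279 and 316 CPM with TGF-beta and 44.3 and 34.7 with Repsox. It was 9.24-fold higher with TGF-beta in K36M (log2 3.21 ± 0.14, adjusted p = 3.17e-14) and 7.52-fold in WT (log2 2.91 ± 0.11, adjusted p = 2.1e-16). K36M was 6.21-fold below WT under TGF-beta (log2 -2.63 ± 0.10, adjusted p = 7.25e-16) and 7.64-fold below it under Repsox (log2 -2.93 ± 0.14, adjusted p = 1.05e-13). The interaction was not called (log2 0.30 ± 0.18, adjusted p = 0.188), though on library totals it was 0.52 (adjusted p = 0.0189).

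The multiplexins, basement membrane zone collagens that carry heparan or chondroitin sulfate chains and release endostatin-like fragments, differed in direction between genotypes under TGF-beta, with Col18a1 higher and Col15a1 lower in K36M. Col18a1 (chromosome 10, 76514923 to 76629293, minus strand) had 1064 and 1034 CPM in K36M TGF-beta and 307 and 292 in K36M Repsox libraries. The WT libraries had 94.1 and 96.8 CPM with TGF-beta and 332 and 282 with Repsox. It was 3.50-fold higher with TGF-beta in K36M (log2 1.81 ± 0.07, adjusted p = 7.45e-15) and 3.22-fold lower in WT (log2 -1.69 ± 0.08, adjusted p = 1.15e-14), an interaction of log2 3.49 ± 0.11, adjusted p = 1.05e-16. Under TGF-beta K36M exceeded WT 11.0-fold (log2 3.46 ± 0.08, adjusted p = 9.39e-20), while the Repsox libraries of the genotypes overlapped (log2 -0.04 ± 0.07, adjusted p = 0.699). Col15a1 had 1.64 and 2.10 CPM in K36M TGF-beta and 3.29 and 2.57 in K36M Repsox libraries. WT values were 11.1 and 15.4 CPM with TGF-beta and 51.0 and 49.6 with Repsox. It was lower in K36M in both media (TGF-beta log2 -2.84 ± 0.23, adjusted p = 2.74e-10; Repsox log2 -4.08 ± 0.18, adjusted p = 2.59e-14). With TGF-beta it was 3.77-fold lower in WT (log2 -1.92 ± 0.15, adjusted p = 1.76e-10) and not called in K36M (log2 -0.67 ± 0.29, adjusted p = 0.0656). Col18a1 over Col15a1 per length was 516 ± 99.4 in K36M TGF-beta, 93.5 ± 12.8 in K36M Repsox, 6.68 ± 1.39 in WT TGF-beta and 5.52 ± 0.53 in WT Repsox cells (SD, n = 2 each). Epithelial markers moved beside Col18a1 in part, with all 14 higher in K36M under TGF-beta and 13 of 14 lower with TGF-beta in WT. All 14 were also higher in K36M under Repsox, where Col18a1 was not called, and in K36M 3 were higher and 6 lower with TGF-beta.

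Transmembrane collagens were low, at no more than 8.49 CPM in any library. Col17a1, a hemidesmosome component of basal epithelium, had 7.27 and 6.90 CPM in K36M TGF-beta and 3.75 and 3.14 in K36M Repsox libraries. In WT libraries it stood at 1.98 and 1.72 CPM with TGF-beta and 4.99 and 5.67 with Repsox. It was higher with TGF-beta in K36M (log2 1.03 ± 0.25, adjusted p = 0.00181) and lower in WT (log2 -1.52 ± 0.29, adjusted p = 8.05e-05), an interaction of log2 2.56 ± 0.38, adjusted p = 7.53e-06. K36M was higher under TGF-beta (log2 1.94 ± 0.28, adjusted p = 2.46e-06), and the lower level under Repsox (log2 -0.62 ± 0.26, adjusted p = 0.0461) lost its call with DESeq2, when any of 6 libraries was left out, and with the replicate number as a block (adjusted p = 0.0544). Col23a1 had 2.19 and 2.18 CPM in K36M TGF-beta and 7.31 and 7.24 in K36M Repsox libraries. Its levels in WT were 1.72 and 2.37 CPM with TGF-beta and 8.49 and 7.63 with Repsox. It was lower with TGF-beta in K36M (log2 -1.73 ± 0.27, adjusted p = 1.24e-05) and in WT (log2 -1.96 ± 0.27, adjusted p = 1.05e-06) and called in neither genotype comparison.

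Col13a1, a chain of cell junctions including the neuromuscular one, had 0.469 and 0.350 CPM in K36M TGF-beta and 2.96 and 2.41 in K36M Repsox libraries. WT cells gave 0 and 0 CPM with TGF-beta and 0.472 and 0.453 with Repsox. At 0 counts in WT TGF-beta, it was at least 3.51-fold higher in K36M under TGF-beta and at least 3.94-fold lower with TGF-beta in WT. These bounds set the group at 0 to 3 counts. The 10 counts of K36M TGF-beta and the 13 of WT Repsox were taken without counting error, so the bounds are not like the exact intervals of other genes. In K36M Col13a1 was 6.42-fold lower with TGF-beta (log2 -2.68 ± 0.56, adjusted p = 0.000419). Col25a1, a neuronal chain, had 0.703 and 1.31 CPM in K36M TGF-beta and 0.461 and 0.161 in K36M Repsox libraries. The corresponding WT levels were 0.430 and 0.287 CPM with TGF-beta and 2.22 and 1.81 with Repsox. It was lower in K36M under Repsox (log2 -2.61 ± 0.61, adjusted p = 0.000894), with an interaction of log2 4.08 ± 0.91, adjusted p = 0.000713, and these were -3.57 and 5.04 without the first K36M Repsox library. Schwann and neural crest markers (7 genes) summed to 227 to 237 CPM in K36M TGF-beta, 284 to 287 in K36M Repsox, 20.5 to 26.3 in WT TGF-beta and 129.9 to 149 in WT Repsox libraries, with Foxd3 at 0 in WT TGF-beta. Of 6 tested, 4 were higher in K36M under TGF-beta and none lower. Under Repsox 2 were higher and 1 lower in K36M, with a median log2 fold change of 0.035. With TGF-beta, 2 were higher and 2 lower in K36M, and none higher and 4 lower in WT. The fitted fold changes of genes with 3 or fewer counts in a group depend on the prior count and are no bounds, and with Col13a1 at its bounds the medians over all 39 chains stayed as given.

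**Figure D4:**
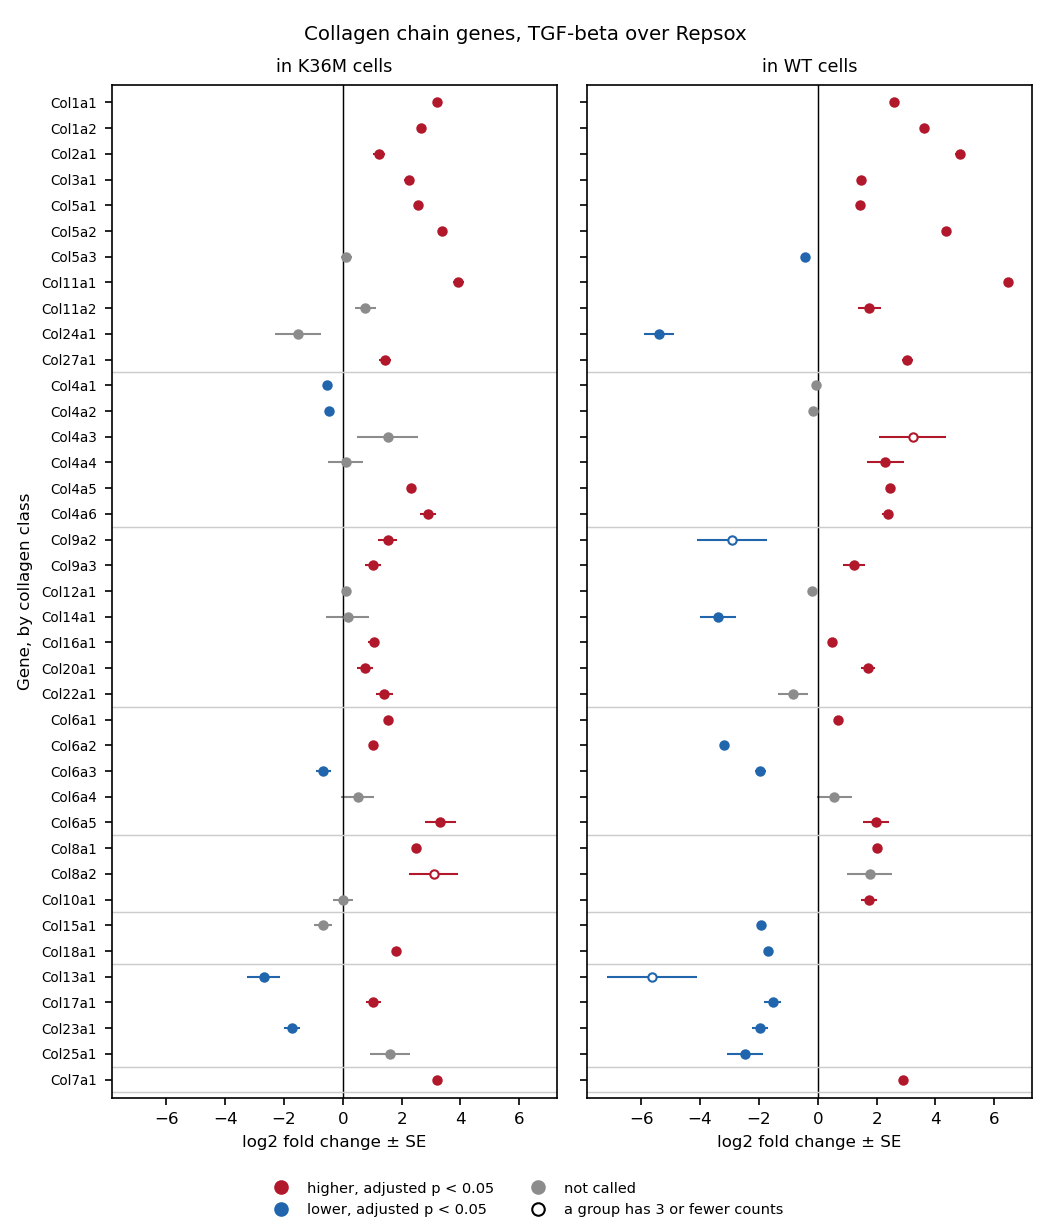
Log2 fold change ± SE of the 39 tested chain genes with TGF-beta over Repsox, in K36M (left panel) and in WT (right panel); colour gives the call and open symbols a group with 3 or fewer counts. Fibrillar chains lie to the right of 0 in both panels apart from Col24a1 and, in WT, Col5a3. Col6a2, Col9a2, Col17a1 and Col18a1 were called in opposite directions in the 2 panels. Col5a3, Col12a1, Col14a1, Col22a1 and Col25a1 also lie on opposite sides of 0, without a call in both.

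**Figure D5:**
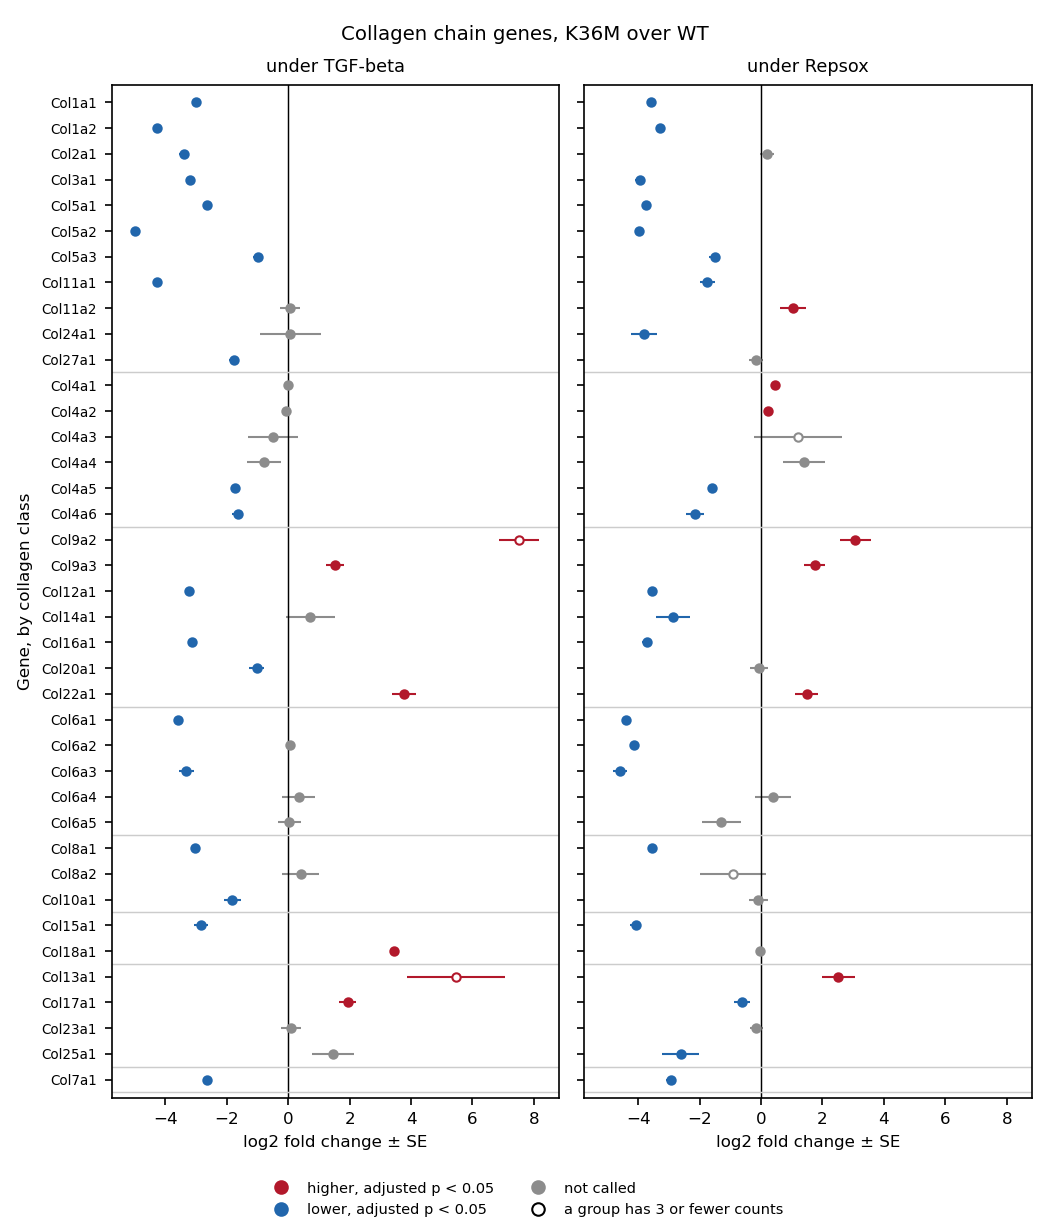
Log2 fold change ± SE of the same 39 genes for K36M over WT, under TGF-beta (left panel) and under Repsox (right panel). Collagens I, III, V, VII, VIII alpha-1 and XII lie left of 0 in both panels, Col9a2, Col9a3, Col13a1 and Col22a1 lie right of 0 in both, and Col18a1 is right of 0 under TGF-beta only.

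Genes whose products modify, fold, process, bind and degrade collagen were counted from lists. Of all tested genes, 24.7% were higher and 23.6% lower with TGF-beta in K36M and 29% higher and 33.4% lower in WT. In K36M against WT, 36.4% of all were higher and 33.9% lower under TGF-beta, and 28.8% higher and 26.9% lower under Repsox. Most folding and secretion genes were called in the same directions as the fibrillar chains. Under TGF-beta against Repsox, 9 of 11 were higher and 1 lower in K36M (median log2 fold change 0.93) and all 11 were higher in WT (1.37), and in K36M against WT 11 of 11 were lower under TGF-beta (-1.28) and 10 lower and 1 higher under Repsox (-0.88). Fkbp10, a collagen prolyl isomerase, had 104 and 103 CPM in K36M TGF-beta, 14.1 and 14.6 in K36M Repsox, 384 and 403 in WT TGF-beta and 96.6 and 87.6 in WT Repsox libraries. It was 7.21-fold higher with TGF-beta in K36M (adjusted p = 3.42e-16) and 4.28-fold in WT (adjusted p = 4.95e-16). Serpinh1, the collagen chaperone HSP47, had 452 and 417 CPM in K36M TGF-beta, 216 and 203 in K36M Repsox, 1041 and 1068 in WT TGF-beta and 378 and 395 in WT Repsox libraries.

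Among 14 hydroxylases and glycosyltransferases, 7 were higher and 3 lower with TGF-beta in K36M and 10 higher and 2 lower in WT, and in K36M against WT 4 were higher and 10 lower under TGF-beta and 6 higher and 6 lower under Repsox. Plod2, a lysyl hydroxylase, rose 2.15-fold with TGF-beta in K36M and 4.38-fold in WT. P4ha1 and P4ha2, prolyl hydroxylases, went against the chains under Repsox, 3.04-fold and 5.21-fold higher in K36M (adjusted p = 2.25e-11 and 2.28e-13), while P4ha3 was 20.7-fold lower there (adjusted p = 2.08e-13).

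Of 18 tested genes of procollagen processing and fibril assembly, 11 were higher and 2 lower with TGF-beta in K36M and 10 higher and 6 lower in WT, and in K36M against WT 4 were higher and 13 lower under TGF-beta and 1 higher and 13 lower under Repsox. Lox, the collagen cross-linking oxidase, had 44.5 and 58.5 CPM in K36M TGF-beta, 0.790 and 5.63 in K36M Repsox, 2599.8 and 2652 in WT TGF-beta and 4.58 and 3.70 in WT Repsox libraries, a 629-fold rise in WT (log2 9.30 ± 0.25, adjusted p = 1.06e-18). Loxl2, a related oxidase, rose 4.36-fold in K36M and 16.5-fold in WT (interaction log2 -1.92 ± 0.11, adjusted p = 1.30e-12). Bgn, the proteoglycan biglycan, was 7.18-fold lower in K36M under TGF-beta and 18.2-fold lower under Repsox.

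Collagen receptors and uptake genes (8 tested) were higher 6 times and lower once with TGF-beta in K36M, and higher 5 times and never lower in WT. In K36M against WT none was higher and 6 were lower under TGF-beta, and 1 was higher and 5 lower under Repsox. In either direction the 5 of 8 called in WT and the 6 of 8 called under TGF-beta lie near the shares of all genes, 62.4% and 70.3%. Itga11, a fibrillar collagen integrin, had 4.53 and 6.99 CPM in K36M TGF-beta, 1.78 and 2.65 in K36M Repsox, 121 and 129 in WT TGF-beta and 2.43 and 3.25 in WT Repsox libraries, a 44.3-fold rise in WT (adjusted p = 1.81e-17). Ddr2, a collagen receptor kinase, was 9.56-fold lower in K36M under TGF-beta and 9.64-fold lower under Repsox. Of 6 tested collagen-degrading proteases, 4 were higher and 1 lower with TGF-beta in K36M and 3 higher and 2 lower in WT, and 5 were lower in K36M in each medium, with 1 higher under TGF-beta and none under Repsox. Mmp9, a gelatinase, had 47.6 and 40.8 CPM in K36M TGF-beta, 3.82 and 1.93 in K36M Repsox, 5.08 and 3.23 in WT TGF-beta and 4.38 and 3.55 in WT Repsox libraries, a 15.0-fold rise with TGF-beta in K36M (interaction log2 3.86 ± 0.37, adjusted p = 8.90e-09). The interaction of Mmp14, a membrane-bound collagenase, was negative (log2 -1.11 ± 0.11, adjusted p = 9.39e-09).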

How the data were processed

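RNA depleted of ribosomal RNA was measured in 8 libraries, and the deposited counts, whole reads per gene in 1 table of 26930 genes, were used as the authors made them. The submitters' processing notes name STAR 2.5.0, HTSeq 0.11.2, edgeR and mm9. Annotation and strand setting: not given in the sources used here. The test was that of edgeR 4.0.16, run in R 4.3.3 (filterByExpr, 15789 genes; TMM factors 0.894 to 1.057; quasi-likelihood test over the 4 group means, 4 residual degrees of freedom), with adjustment over all tested genes, and the code was tested on simulated data. Totals of 10928302 to 15594217 counts and a common biological coefficient of variation of 0.0702 set the precision, and intervals cover counting error only. Exon lengths and coordinates came from GENCODE vM1 on mm9, in which all 43 members were found, and promoters from RefSeq GRCm38.p6. The members and lists were chosen with earlier results of these data known. Members described in full were Col1a1, Col5a2 and Col6a1, the 2 highest per length of each class, and, for each direction of each comparison, the 3 called members of smallest adjusted p; other members have short values, and of each other list at most 3 called members per comparison. Col3a1, Col5a3, Col8a2, Col11a2, Col13a1, Col14a1, Col20a1, Col24a1, Col25a1, Col27a1 and the remaining collagen IV and VI chains fall outside that rule and were given to account for every member. Alternatives were RLE factors, library totals, no filter, DESeq2 1.42.0, only the groups compared, the replicate number as a block and leaving out each library.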

Additional observations from a re-analysis of the deposited data

Results flagged for a closer look

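The interaction (log2) is the difference between genotypes in the TGF-beta change, K36M minus WT. Its test called 16 of the 39 tested chains with a positive and 10 with a negative value, and 51% of all tested genes. Among the chains described in full, which were chosen in part by this same test, the interaction was called for 19. It was positive for Col6a2 (4.20), Col9a2 (4.44), Col18a1 (3.49), Col17a1 (2.56), Col22a1 (2.27), Col6a3 (1.29), Col15a1 (1.25), Col5a1 (1.10), Col6a1 (0.84), Col1a1 (0.59), Col16a1 (0.58) and Col8a1 (0.49). It was negative for Col2a1 (-3.60), Col11a1 (-2.53), Col10a1 (-1.73), Col5a2 (-0.999), Col1a2 (-0.96), Col4a1 (-0.47) and Col4a2 (-0.31). Col6a2, Col9a2, Col17a1 and Col18a1 were called in opposite directions in the 2 genotypes, and the fitted value of Col9a2 rests on 1 count in WT TGF-beta libraries, with 3.69 and 6.78 without the first and the second of them. Without the second WT TGF-beta library Col22a1 was 2.89 and Col6a3 2.01. Calls were lost with DESeq2 for Col1a1, Col6a3, Col8a1 and Col16a1, on library totals for Col4a2 (-0.09), and without some single library for Col4a2, Col8a1, Col15a1 and Col16a1.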

How the results depend on the processing

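Under every alternative run, each count of called chain genes stayed within 1.5 times its value, and 120 of 141 called log2 fold changes followed kept direction and call under all of them. Library totals alone moved the median of all genes to -0.275 in the WT medium comparison, 0.248 between genotypes under TGF-beta and 0.314 in the interaction. They split all genes called into 3425 higher and 6709 lower, against 4580 and 5271 on TMM, in the first of these, 6819 and 4366 against 5741 and 5357 in the second and 5738 and 2482 against 4493 and 3562 in the third. On library totals K36M minus WT under TGF-beta was 0.20 for Col4a1 and 0.12 for Col4a2, and the interaction of Col9a3 was 0.0113. Col4a1 was 0.0061 there in a fit of the compared groups alone, and Col10a1 was -0.0013 with TGF-beta in K36M without the filter. Leaving out 1 library gave a range across 0 for 9 of the 160 log2 values followed: K36M minus WT under Repsox of Col10a1 (-0.46 to 0.45) and Col18a1 (-0.14 to 0.083); K36M minus WT under TGF-beta of Col4a1 (-0.081 to 0.069), Col6a2 (-0.12 to 0.30) and Col23a1 (-0.12 to 0.34); TGF-beta minus Repsox of Col4a1 in WT (-0.17 to 0.042) and Col10a1 in K36M (-0.25 to 0.23); and the interaction of Col9a3 (-0.50 to 0.19) and Col24a1 (-0.88 to 5.23). Of these only the interaction of Col24a1 had been called, and the cause was not tested. Without division by exon length, 28 of 36 class shares moved beyond the spread of replicates, and on library totals 16 of 40 summed levels did. Counts of 3 or fewer in a group limit Col4a3, Col8a2, Col9a2 and Col13a1.

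Replicate numbers are only names here: the differences between the 2 replicates of a group, set against those of another group across genes, gave correlations of -0.0202 to 0.0315. With the replicate number as a block 27 chains were called in K36M minus WT under Repsox and 34 in TGF-beta minus Repsox in WT, against 28 and 33 without it, and the counts of the other comparisons were equal. The block ended the calls of Col17a1 under Repsox (adjusted p = 0.0544) and of the Col4a4 interaction (adjusted p = 0.058), and brought calls of Col12a1 in the WT medium comparison and the interaction. The Col4a4 interaction kept its call under only 2 of 13 alternatives, and was lost also with DESeq2, on library totals, without the filter and without most single libraries.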
